A study of Rattus norvegicus with 28 samples.

Results

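The proteasome and immunoproteasome subunit genes were followed in rat spinal cord after contusion injury (SCI) and after transplantation of neural progenitor cells (NPCs). The members were all genes whose name on the array starts with Psma to Psmg followed by a digit, which gave 46 genes, measured by 54 probes, of 35469 named features. The rule also takes in Psmc3ip, which shares only the letters of its name with the ATPases, and Psma3l, a name that RefSeq lists as a synonym of Psma3. Every member but Psmb11 was well above background on all 28 arrays, and Psmb11, the thymus-specific catalytic subunit, was well above background on none.

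The arrays held total RNA from 1.5 cm of thoracic spinal cord of adult female rats, with 7 groups of 4 animals, each hybridised to a 1-colour Agilent array. T0 animals carry the label sham and are called uninjured in the study's text. T1, T2, T4 and T8 animals were taken 1, 2, 4 and 8 weeks after a severe contusion of 250 kdyn at the level of thoracic vertebra 8. T1_NPC animals received NPCs right after the injury and were taken at 1 week, and T2_NPC animals received them 1 week after the injury and were taken at 2 weeks. The NPCs were grown from the cords of other injured adult rats, and host and graft RNA were measured together. The treatment protocol lists the immunosuppressant FK-506 without separating groups, and the study states that injured controls received cell-free medium. Each tissue block holds every cell type of the segment, so fewer cells of a type and less RNA per cell cannot be told apart. Values are log2 intensities as the authors normalised them, a difference is the difference of 2 group means on that scale, and a member was called when its limma adjusted p over all 35469 features was below 0.05.

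The proteasome is the large protease that degrades ubiquitin-tagged proteins in the cytosol and nucleus. Its 20S core is a barrel of α and β rings in which Psmb5, Psmb6 and Psmb7 carry the proteolytic sites, and the 19S particle at its ends recognises, unfolds and feeds in substrates. Interferons induce Psmb8 (LMP7), Psmb9 (LMP2) and Psmb10 (MECL-1), which take the places of Psmb5, Psmb6 and Psmb7 during assembly and form the immunoproteasome, known for making peptides for MHC class I. Microglia and infiltrating leukocytes are cells known to carry it in the injured nervous system.

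The probes of both partners of an exchange are shown at the outset, because the comparison rests on telling related subunits apart. Each is a 60-base oligonucleotide, read from the scanner output and placed by its header on rn4. The Psmb8 and Psmb9 probes lie on chr20:4787980-4788039 (minus strand) and chr20:4806341-4806400 (plus strand), close to each other, and the Psmb5 and Psmb6 probes on chr15:32690134-32690193 (minus) and chr10:57371368-57371427 (plus).
Psmb8: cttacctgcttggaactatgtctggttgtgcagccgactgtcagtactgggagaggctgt
Psmb9: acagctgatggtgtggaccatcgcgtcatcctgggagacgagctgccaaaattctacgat
Psmb5: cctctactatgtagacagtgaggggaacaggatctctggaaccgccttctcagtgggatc
Psmb6: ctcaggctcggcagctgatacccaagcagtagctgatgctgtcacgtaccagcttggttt

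Promoter sequence is shown for the inducible members, since interferon acts on them through known DNA elements. RefSeq promoters (build GRCr8, from 250 bases before to 50 bases from the start of the gene on) were found for 40 of the 46 members. The core of the interferon-stimulated response element, GAAA, any 2 bases and GAAA again on either strand, was in 3.92% of 33469 rat promoters and in 7 of these 40. The members that held it were Psmb8, Psmb10, Psme2, Psma4, Psmb3, Psmd7 and Psmg4. In the fit without a block, Psmb8 and Psmb10 were called higher than T0 at all 4 times after injury and Psme2 at some of them. Psmd7 was called lower at all 4 times, and Psma4, Psmb3 and Psmg4 were called at none. In the lines that follow, capitals mark a match to that core and each stretch starts 150 bases before the gene's start. Psmb8 reads chr20:4657026-4657181 (minus strand, ending 6 bases into the gene), Psmb10 chr19:50743293-50743442 (minus), Psme2 chr15:33052752-33052901 (minus) and Psmb9 chr20:4668850-4668999 (plus).
Psmb8: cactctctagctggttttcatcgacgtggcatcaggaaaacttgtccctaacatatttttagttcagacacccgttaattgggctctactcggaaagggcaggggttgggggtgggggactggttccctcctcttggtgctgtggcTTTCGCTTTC
Psmb10: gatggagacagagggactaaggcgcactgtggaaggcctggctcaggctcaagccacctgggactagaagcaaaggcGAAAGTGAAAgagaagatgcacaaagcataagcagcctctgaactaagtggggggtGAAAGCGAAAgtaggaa
Psme2: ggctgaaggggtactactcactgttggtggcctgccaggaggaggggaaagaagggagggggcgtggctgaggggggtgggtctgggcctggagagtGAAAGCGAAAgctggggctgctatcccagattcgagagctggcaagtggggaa
Psmb9: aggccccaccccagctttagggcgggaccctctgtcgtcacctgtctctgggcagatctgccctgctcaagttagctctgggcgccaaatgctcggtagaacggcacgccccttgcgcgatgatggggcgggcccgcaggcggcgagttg
The Psmb10 stretch holds the core 2 times, the Psmb8 match spans the start of the gene on the opposite strand, and the Psmb9 and Psme1 windows do not hold these letters. The letters of the interferon-γ element GAS, TTCNNNGAA, were in 8.87% of all promoters and in 4 of the 40 members (10.0%), Psmb8, Psmc6, Psmd3 and Psmd7. The core of the antioxidant response element, TGACNNNGC, through which Nfe2l2 acts, was in 12.1% of all promoters and in 8 of the 40 members (20.0%). These were Psma3, Psmb2, Psmb5, Psmb6, Psmd1, Psmd3, Psmd9 and Psme4. A match of letters is a description of the window and not a binding site.

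Before the results, 1 property of the deposit has to be stated, because it touches every value. Each scanner output was ranked against each column of the authors' value table, and for 16 of the 28 arrays the output deposited under a sample matched another sample's column (rank correlation 1.00 with the other column and 0.948 to 0.992 with its own). These were 12 arrays of the time course and all 4 T1_NPC arrays. The value table was used as labelled, and the 12 arrays without the conflict gave another estimate. By the matched outputs, the time course was scanned in 2 sessions that each hold all 5 of its groups, while the T1_NPC and T2_NPC arrays fill 1 slide each in session 3, so that transplantation, slide and scan session cannot be told apart. With the scanner outputs taken as deposited, no member was called in any comparison. The outputs deposited as T0 replicates 2 and 4 match the columns of T1_NPC replicate 2 and T4 replicate 1, whose summed microglia and macrophage markers (linear intensity in units of 1000) were 597 and 667. The undisputed T0 replicates 1 and 3 were at 92.1 and 107.2, and the columns labelled T0 replicates 2 and 4 at 100.1 and 87.9.

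After SCI the immunoproteasome subunits and the PA28α gene rose at every time and PA28γ and part of the 19S particle fell. Most of the 20S core did not pass the test in the fit without a block. With scan session as a block, some of its α subunits passed at T1, T4 and T8. At T1, 22 of 46 members were called, 7 higher and 15 lower. Across all features 44.1% were called at T1, 19.1% higher and 25.1% lower, beside 47.8% of the members, so the number called says nothing particular about them. At T2, 21 members were called (7 higher, 14 lower) against 40.0% of all features (17.7% higher, 22.2% lower). At T4 it was 22 (6 and 16) against 38.5% (17.5% and 21.0%), and at T8 23 (7 and 16) against 39.7% (18.2% and 21.5%). On the undisputed arrays, where T0, T2 and T8 hold 2 animals each, 19 members were called at T2 against 33.6% of all features and 25 at T8 against 37.5%. T1 and T4 hold 1 undisputed animal each, and no count is given for them. These 4 comparisons share the T0 animals. Called higher at all 4 times were 6 members, Psmb8, Psmb9, Psmb10, Psme1, Psme4 and Psmd9, and 12.3% of all features had this pattern. Called lower at all 4 times were 13 members, against 15.9% of all features. The median difference of the 46 members was -0.05 at T1 and -0.13 at T8, beside -0.10 and -0.04 for all features.

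**Figure D1:**
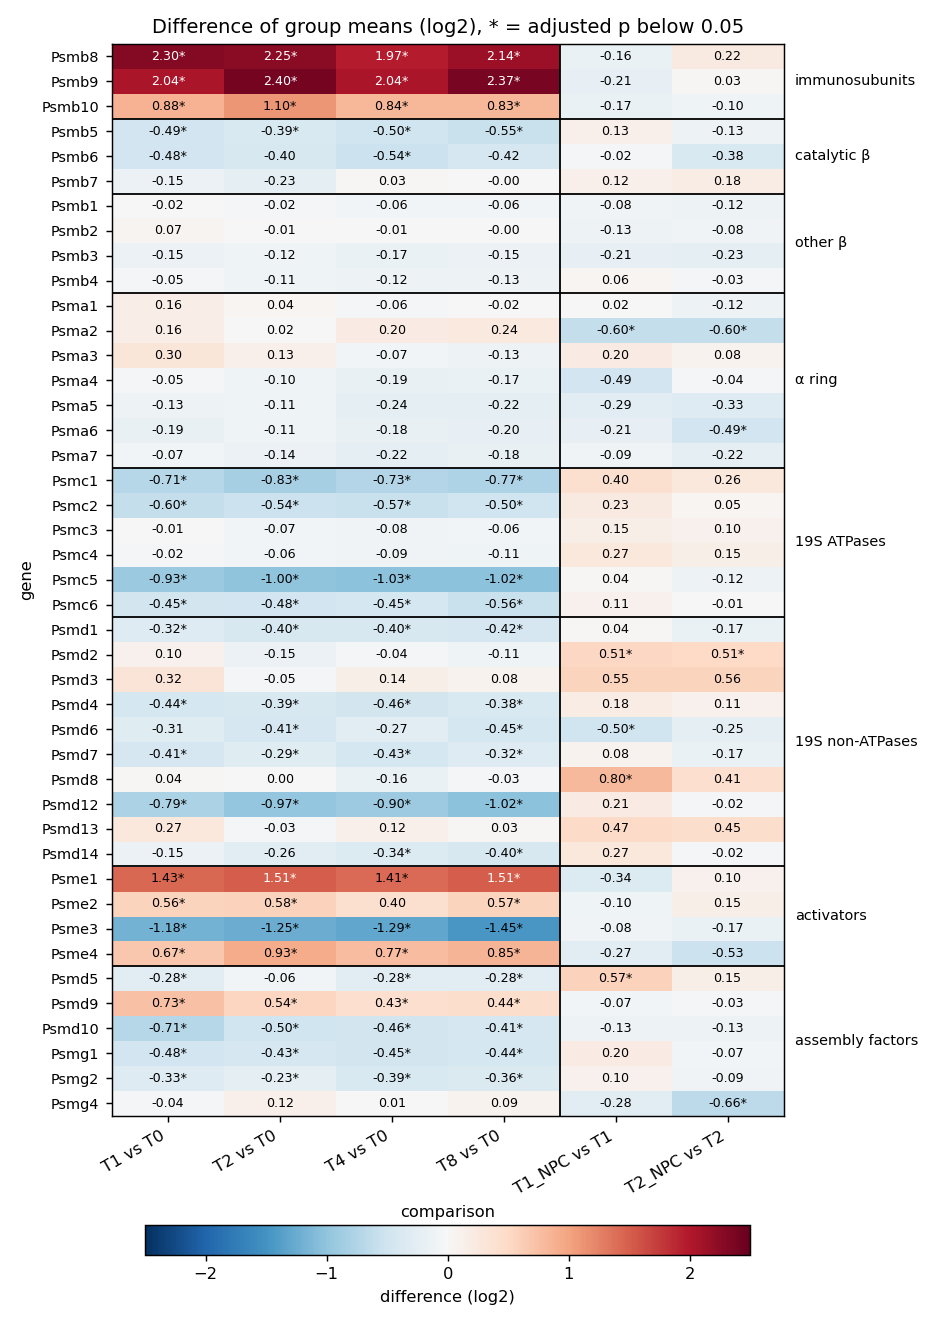
Differences of group means (log2, colour and printed value) for the 43 members with an assigned role on well-detected probes (rows) in the 4 injury and 2 transplantation comparisons (columns), with an asterisk where the limma adjusted p was below 0.05. Psmb8, Psmb9 and Psme1 carry the strongest red in the injury columns and Psme3, Psmc5 and Psmd12 the strongest blue, and the α ring has no asterisk there.

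Psmb8, the subunit that replaces Psmb5, was at 10.33, 9.58, 10.42 and 9.30 in the 4 T0 animals and at 12.31, 12.44, 11.66 and 12.42 in the T1 animals. It stayed between 11.69 and 12.27 in the 12 animals of T2, T4 and T8. No injured animal overlapped the uninjured ones. One week after injury the difference was 2.30, a 4.92-fold rise (SE 0.28, limma adjusted p = 4.07e-07). It was 2.25 at 2 weeks, 1.97 at 4 weeks and 2.14 at 8 weeks.

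Psmb9, the subunit that replaces Psmb6, was at 11.33, 10.49, 11.22 and 10.35 at T0 and at 13.03, 13.10, 12.41 and 13.02 at T1. Its groups did not overlap either, with 12.63 to 13.51 at T2, T4 and T8. The rise was 4.12-fold at T1 and 5.26-fold at T2 (SE 0.27 on the log2 scale, limma adjusted p = 2.16e-07), 4.10-fold at T4 and 5.18-fold at T8. In Psmb8 and Psmb9 alike, T0 replicates 1 and 3, scanned in session 1, were higher than replicates 2 and 4, scanned in session 2. Over the 4 times Psmb8 differed from T0 by 1.93, 1.86, 1.81 and 1.76 within session 1 and by 2.73, 2.63, 2.34 and 2.52 within session 2, where 1 to 3 injured animals stood against 2.

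Psmb10, the subunit that replaces Psmb7, also rose. It was at 14.02, 13.85, 14.09 and 13.77 at T0, and the 16 injured animals lay between 14.52 and 15.26, above all T0 animals. The rise was 1.84-fold at T1, 2.15-fold at T2 (SE 0.11 on the log2 scale, limma adjusted p = 3.29e-08), 1.79-fold at T4 and 1.78-fold at T8.

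The constitutive counterparts moved the other way or did not pass. Psmb5, which carries the chymotrypsin-like site, was at 14.77, 14.44, 14.80 and 14.47 at T0 and at 14.41, 14.06, 14.13 and 13.94 at T1, below all T0 animals. It fell by 0.49 at T1 (SE 0.15, limma adjusted p = 0.0101) and by 0.39, 0.50 and 0.55 at the later times. On the undisputed arrays the differences were -0.38, -0.39, -0.39 and -0.54, with 1 animal each at T1 and T4. At T2, where the groups overlapped, the call was lost on leaving out T0 replicate 1, T0 replicate 3, T2 replicate 1 or T2 replicate 4. Psmb6, which carries the caspase-like site, fell by 0.48 at T1 and 0.54 at T4, while its differences of -0.40 at T2 and -0.42 at T8 missed the threshold (limma adjusted p = 0.0680 and 0.0541). With scan session as a block these differences were called (limma adjusted p = 4.29e-05 and 2.59e-05), as they were within each session. In the fit without the block the calls of Psmb6 were lost without T0 replicate 1 or T0 replicate 3, at T1 also without T1 replicate 2, 3 or 4 and at T4 without T4 replicate 1, and its groups overlapped at each time. Psmb7, which carries the trypsin-like site, was not called at any time, with differences of -0.15, -0.23, 0.03 and -0.00 and an interval of -0.59 to 0.29 at T1.

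**Figure D2:**
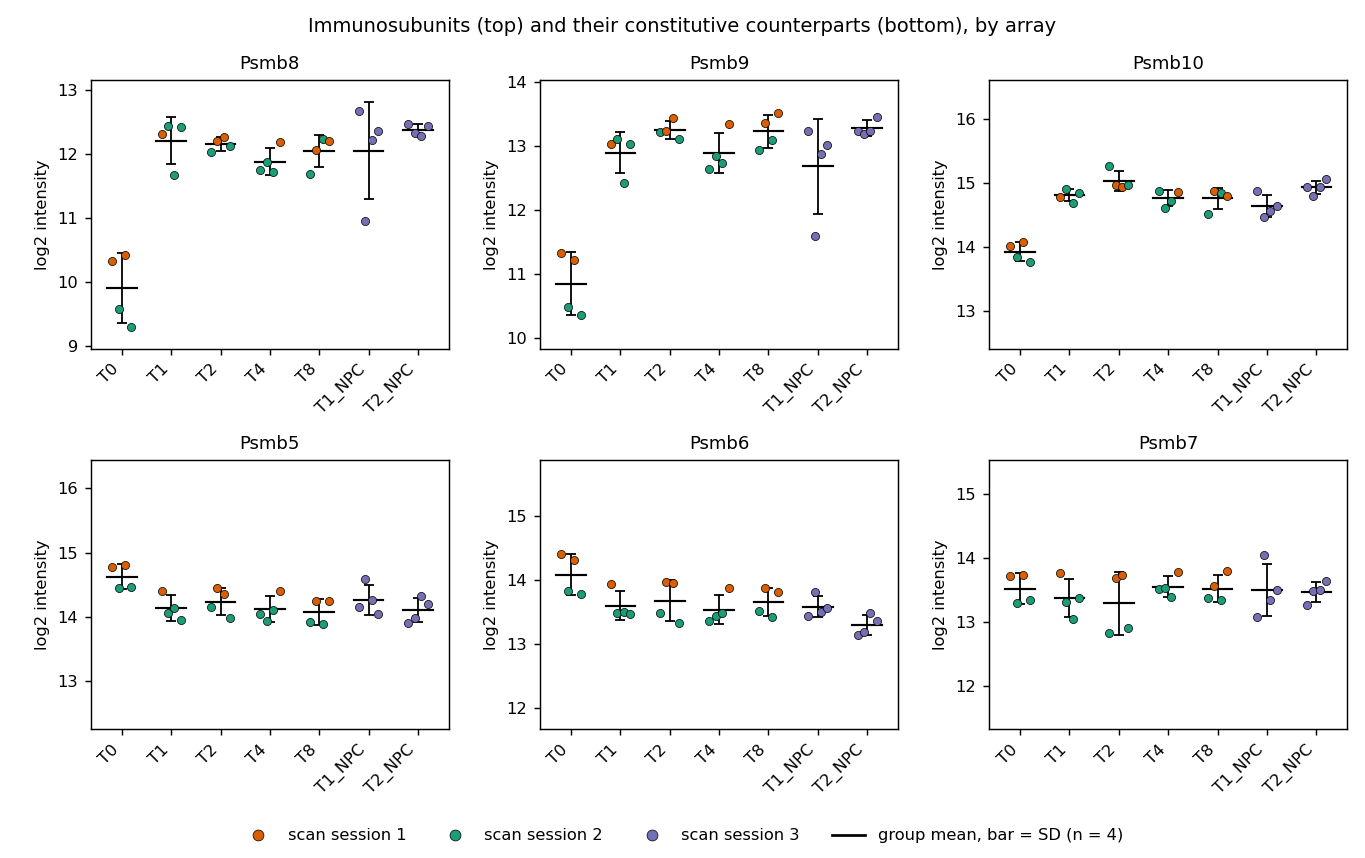
Log2 intensity of the 3 immunosubunits (top) and the constitutive subunits they replace (bottom) on each of the 28 arrays, in panels of equal height on the log2 axis; points are animals coloured by scan session, lines are group means and bars SD (n = 4). All injured animals lie above the T0 animals in the top row, and T1_NPC replicate 2 is low in Psmb8 (10.95) and Psmb9 (11.60).

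The RNA of both partners was then compared within each array, as the log2 value of an immunosubunit minus that of its counterpart, which cancels what scales an array as a whole. Exchange of subunits in the assembled protease was not measured. Levels of different probes cannot be compared, so only the change of this difference between groups is read. Psmb8 minus Psmb5 was -5.16 to -4.39 in the T0 animals and -2.46 to -1.53 at T1. The change from T0 was 2.78, 2.64, 2.47 and 2.68 over the 4 times, which is 5.55- to 6.89-fold on the linear scale. Psmb9 minus Psmb6 changed by 2.52, 2.80, 2.58 and 2.80. Psmb10 minus Psmb7 changed by 1.03, 1.33, 0.81 and 0.83. In these 12 comparisons no injured animal overlapped a T0 animal, and each had the smallest p that 4 against 4 animals allow in a 2-sided exact permutation test (0.0286, and 0.0429 after Benjamini-Hochberg adjustment over the 18 comparisons made). On the undisputed arrays alone Psmb8 minus Psmb5 changed by 2.31 at T1, 2.25 at T2 and 2.30 at T8.

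**Figure D3:**
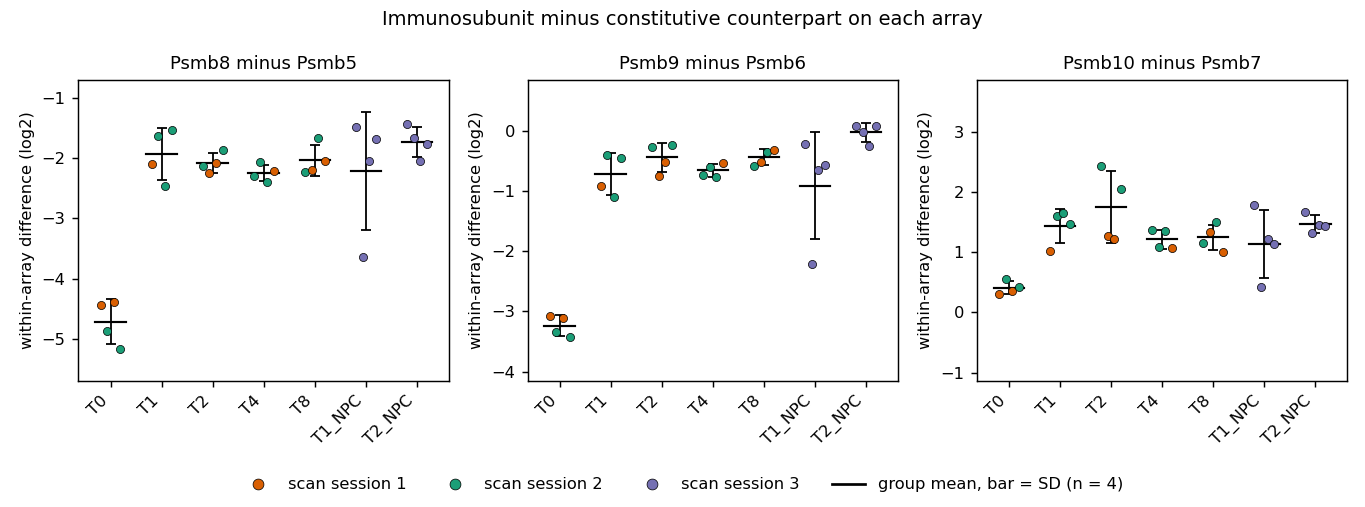
Within-array difference (log2) of each immunosubunit and its constitutive counterpart on the 28 arrays; points are animals coloured by scan session, lines are group means and bars SD (n = 4). The T0 points lie below all T1 to T8 points in each panel, and T1_NPC replicate 2 is the lowest transplanted animal for Psmb8 minus Psmb5 (-3.65) and Psmb9 minus Psmb6 (-2.22).

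The rest of the 20S core did not pass the test after injury in the fit without a block. None of the 7 α subunits, Psma1 to Psma7, which form the outer rings and the gate, was called against T0 at any time, and their differences ran from -0.24 to 0.30. None of Psmb1, Psmb2, Psmb3 and Psmb4, the β subunits without a proteolytic site, was called, with differences from -0.17 to 0.07. A p that misses the threshold does not show that these levels were equal: the interval of Psma6 at T1 was -0.38 to -0.00, and that of Psma2 -0.21 to 0.54. With scan session as a block some α subunits did pass: Psma1 and Psma3 higher and Psma6 lower at T1, Psma4, Psma5 and Psma6 lower at T4, and these and Psma7 lower at T8. Across the 14 constitutive core subunits, 2, 1, 2 and 1 were lower over the 4 times, and these calls were Psmb5 and Psmb6. These are 14.3%, 7.14%, 14.3% and 7.14% of the core, beside 25.1%, 22.2%, 21.0% and 21.5% of all features.

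The regulators that dock on the 20S core did not all move the same way. PA28α and PA28β (Psme1 and Psme2) form the cytosolic ring that interferon induces, PA28γ (Psme3) is a nuclear ring and PA200 (Psme4) a nuclear single-chain cap. Psme1 was at 12.40, 12.42, 12.47 and 12.43 at T0 and at 13.81, 14.05, 13.57 and 14.00 at T1. This is a narrow uninjured group (SD 0.03) with every T1 to T8 animal at 13.57 or higher. The rise was 2.69-fold at T1 (difference 1.43, SE 0.12, limma adjusted p = 1.30e-09), 2.85-fold at T2, 2.66-fold at T4 and 2.86-fold at T8.

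Psme2, its ring partner, was at 13.25, 12.86, 13.19 and 12.83 at T0 and at 13.76, 13.70, 13.26 and 13.64 at T1. The lowest T1 animal lay just above the highest T0 animal. Psme2 rose by 0.56 at T1, 0.58 at T2 and 0.57 at T8, and at T4 the difference of 0.40 missed the threshold (limma adjusted p = 0.0540). With scan session as a block it was 0.49 and was called (limma adjusted p = 0.000473), as it was within each session.

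Psme3 went down. It was at 14.88, 14.93, 14.97 and 14.98 at T0, at 13.88, 13.63, 14.11 and 13.43 at T1 and at 13.39, 13.52, 13.41 and 13.65 at T8, with no overlap. It fell by 1.18, 1.25 and 1.29 at T1, T2 and T4 and by 1.45 at T8 (2.73-fold lower, SE 0.14, limma adjusted p = 1.54e-08). Psme4 rose by 0.67, 0.93, 0.77 and 0.85 over the same times. At T2 its replicates 1 and 4 of session 2, at 11.67 and 11.41, lay above the other pair, whose lowest was 10.66. Within session 1 Psme4 differed by 0.38, 0.50, 0.39 and 0.79, and within session 2 by 0.77, 1.36, 0.90 and 0.90.

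**Figure D4:**
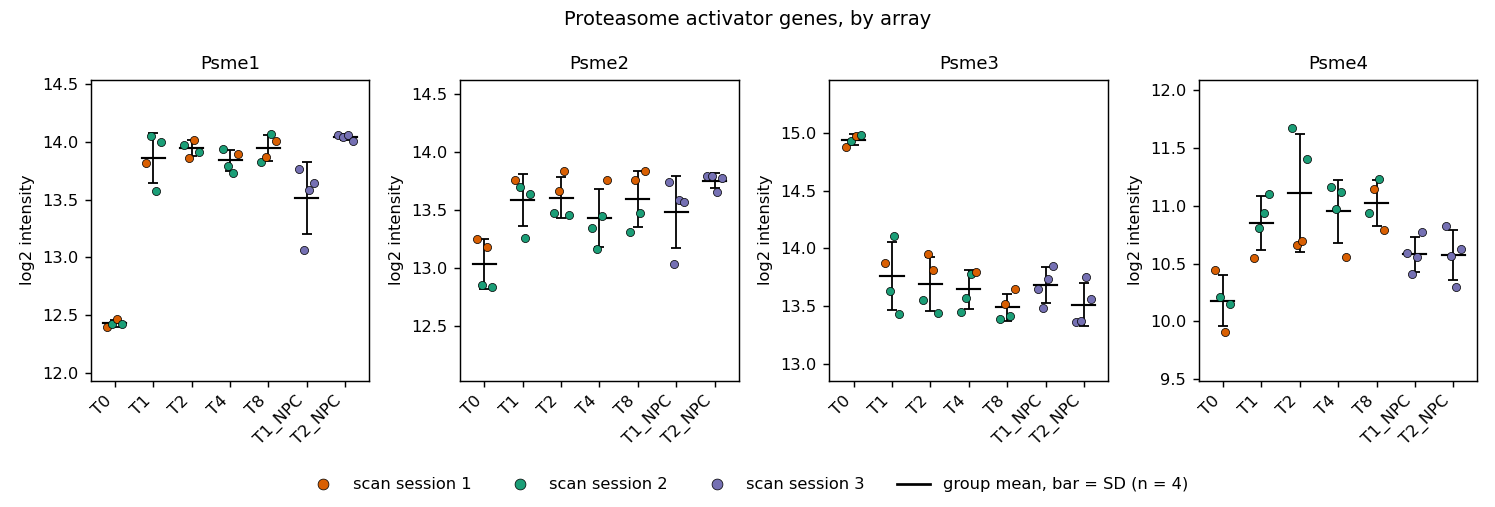
Log2 intensity of the 4 activator genes on each of the 28 arrays, in panels of equal height on the log2 axis; points are animals coloured by scan session, lines are group means and bars SD (n = 4). Psme1 is above T0 and Psme3 below T0 in every injured animal.

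The 19S particle was lower in part. In all, 8, 9, 9 and 10 of its 16 subunits were called lower over the 4 times. Of all features, 25.1%, 22.2%, 21.0% and 21.5% were lower, and 15.9% at all 4 times. Of the 6 ATPases of the particle, which form the ring that unfolds substrates, Psmc1, Psmc2, Psmc5 and Psmc6 fell at all 4 times. Psmc3 and Psmc4 were not called, with differences from -0.11 to -0.01. Psmc5 was at 17.29, 17.15, 17.35 and 17.18 at T0 and at 16.38, 16.16, 16.73 and 16.01 at T1. Its animals did not overlap, and it fell by 0.93, 1.00 and 1.03 at T1, T2 and T4 and by 1.02 at T8 (SE 0.14, limma adjusted p = 2.17e-06). Psmc1 fell by 0.71 to 0.83, Psmc2 by 0.50 to 0.60 and Psmc6 by 0.45 to 0.56 over the 4 times.

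Of the 10 non-ATPase subunits, 4, 5, 5 and 6 fell over the 4 times and none rose. Of all features, 25.1%, 22.2%, 21.0% and 21.5% were lower at these times. Psmd12, a scaffold subunit of the lid, was at 14.20, 14.18, 14.06 and 14.30 at T0 and at 13.07 to 13.28 at T8, with no overlap. It fell by 0.79, 0.97 and 0.90 at T1, T2 and T4 and by 1.02 at T8 (SE 0.14, limma adjusted p = 2.11e-06). Psmd1, the largest base subunit, Psmd4, a ubiquitin receptor, and Psmd7, the lid partner of the deubiquitinase, fell at all 4 times by 0.29 to 0.46. Psmd14, the deubiquitinase itself, fell by 0.34 at T4 and 0.40 at T8, and Psmd6, another lid subunit, by 0.41 at T2 (a call lost without T0 replicate 2) and 0.45 at T8. With scan session as a block Psmd6 was also called lower at T1 and T4 (limma adjusted p = 1.65e-05 and 5.14e-05). Psmd2, Psmd3, Psmd8 and Psmd13 were not called against T0. The 2 probes of Psmd2 disagreed after injury: at T1 they differed from T0 by 0.44 and -0.23, so its mean value hides a split.

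Of the 6 factors that help build the 20S core or the 19S particle, Psmd9, a chaperone of the ATPase ring, rose by 0.73, 0.54 and 0.43 at T1, T2 and T4 and by 0.44 at T8 (limma adjusted p = 0.000442). Its T0 mean was 13.06 ± 0.05 (SD, n = 4) and its T1 mean 13.79 ± 0.11. Psmd10 (gankyrin), another such chaperone, fell by 0.71, 0.50, 0.46 and 0.41. Psmg1 and Psmg2, which together guide the α ring, fell at all 4 times by 0.43 to 0.48 and by 0.23 to 0.39. Psmg4 was not called, and Psmd5 fell by 0.28 at T1, T4 and T8, calls that were lost without replicate 1 or 3 of T0 or replicate 3 or 4 of the injured group. Psmc3ip differed by 0.17 to 0.31 and Psma3l by -0.11 to 0.26, without a call in this fit. With scan session as a block Psmc3ip was called higher at T1, T2, T4 and T8 (limma adjusted p = 0.0121, 0.0159, 0.00500 and 0.000350). Psma3l was then called higher at T1 alone (limma adjusted p = 0.000226).

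The direction of these changes was the same in both scan sessions. All 88 calls of a member against T0 had the same sign within session 1, which has only undisputed arrays, and within session 2, whose time-course arrays are all in the conflict. The calls were made on these same arrays together, which favours equal signs, so this describes the sessions and is not an independent check. Session 1 also holds 1 injured animal each at T1 and T4, and the same 2 T0 animals serve all 4 times.

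Consecutive times were compared next. No member was called between T2 and T1, T4 and T2, or T8 and T4, where limma called 1.48%, 0.0761% and 0.0902% of all features, so that the count of 0 is at the background, and at an unadjusted p below 0.05 the counts were 2, 2 and 0. Psmb8 differed by -0.05, -0.27 and 0.16 and Psmb9 by 0.35, -0.36 and 0.34 in these steps. With scan session as a block, 1 member was called, Psma3, which was lower at T2 than at T1 by 0.25 (limma adjusted p = 0.0349) and is named here after its value was seen.

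Genes of the surrounding pathway were taken from lists. Of 13 interferon pathway genes on the array, 12, 10, 12 and 11 were higher over the 4 times and none was lower. Their median was 0.89 at T8. Of all features, 19.1%, 17.7%, 17.5% and 18.2% were higher at T1, T2, T4 and T8. Irf1, a transcription factor of the interferon response, rose by 1.74 at T1 and by 1.56 at T8. Ifng, the gene of interferon-γ, was not well above background on any array, and Ifnb1, counted as higher at T1 and T4, was so on 3. Of 8 antigen processing genes, 7 were higher at each of the 4 times, with a median of 1.11 at T1. Tap1 and Tap2, which carry proteasome-made peptides into the endoplasmic reticulum, rose by 3.01 and 1.14 at T1, and B2m, the light chain of MHC class I, by 1.00.

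Partners of the proteasome went in both directions. Of 20 on the array, 4 were higher and 4 lower at T1, where 19.1% of all features were higher and 25.1% lower. At T8, 2 were higher and 5 lower, where 18.2% of all features were higher and 21.5% lower. The counts alone therefore say nothing particular about the partners. Pomp, the chaperone that matures the 20S core, was not called against T0, with differences from -0.16 to 0.01. Nfe2l2 (NRF2), a stress factor, rose by 0.76 at T1 and 0.77 at T8, and Nfe2l1 (NRF1), the factor known to restore proteasome genes when the protease is inhibited, by 0.33 at T8 alone. Usp14 and Uchl5, the deubiquitinases of the 19S particle, fell by 0.78 and 0.64 at T1.

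Markers of several cell types moved at the same time, given here as the sum of linear intensities of a list in units of 1000. Of 15 microglia and macrophage markers, 14 were higher at T1 and 13 at T8. Their sum was 87.9 to 107.2 at T0, 768 to 946 at T1 and 556 to 633 at T8, and Csf1r was well above background on 1 array only. Of 9 T cell markers, 8 were higher at T1 and 9 at T8, and their sum was 0.498 to 0.637 at T0 and 2.60 to 5.67 at T1. Cd3e among them was well above background on 15 arrays and Cd247, counted at T8, on 4. Of 11 neuron markers, 10 were lower at T1 and at T8, and their sum was 342 to 467 at T0 and 99.1 to 183 at T1. Of 9 oligodendrocyte markers 6 were lower at T1, of 8 astrocyte markers 2 were higher and 3 lower, and of 3 red blood cell markers none was called. Of all features, 19.1% were higher and 25.1% lower at T1, and 18.2% and 21.5% at T8. The astrocyte counts alone therefore say nothing particular. The part of the marker shifts in the values of the proteasome genes was not tested.

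NPC transplantation was compared with injury alone at the same time. The immunosubunits and activators were not called in either comparison. Psmb8 was at 12.67, 10.95, 12.22 and 12.36 in T1_NPC and at 12.47, 12.32, 12.28 and 12.43 in T2_NPC. Its difference was -0.16 from T1 (interval -0.73 to 0.42) and 0.22 from T2 (-0.35 to 0.80). Psmb9 differed by -0.21 (-0.78 to 0.35) and 0.03 (-0.53 to 0.59), and Psmb10 by -0.17 and -0.10. The 6 comparisons of subunit pairs between transplanted and injured animals did not pass the exact permutation test, with adjusted p of 0.0735 for Psmb8 minus Psmb5 and for Psmb9 minus Psmb6 at T2_NPC and higher values in the other 4.

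T1_NPC replicate 2 stood apart. It was the lowest of its group for Psmb8 (10.95), Psmb9 (11.60), Psmb10 (14.46), Psme1 (13.07) and Psme2 (13.03), and the highest for Psmb5 (14.59), Psmb7 (14.05) and Psmd8 (13.92). In the same units of 1000, its summed microglia and macrophage markers were 597 against 935 to 1065 in the other T1_NPC animals, its T cell markers 0.972 against 5.38 to 6.45 and its neuron markers 192 against 112 to 155. The part of these in its values was not tested. It is also among the 16 arrays in the conflict described above. Without it, the T1_NPC difference of Psmb8 became 0.21 and that of Psmb9 0.14, and neither passed the test.

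Members of other roles were called against injury alone, at shares of 10.9% and 8.70% of the 46 that are no higher than those of all features. At T1_NPC, 5 members were called (Psmd8, Psmd5 and Psmd2 higher, Psma2 and Psmd6 lower), where limma called 11.9% of all features (5.45% higher, 6.46% lower), and at T2_NPC 4 were called (Psmd2 higher, Psmg4, Psma2 and Psma6 lower), where it called 9.47% (4.62% higher, 4.85% lower). Some sums of gene lists (in units of 1000) did not overlap between T2_NPC and T2. The red blood cell sum was 5.32 to 23.1 against 1.85 to 4.10. The oligodendrocyte sum was 401 to 448 against 308 to 368, and the antigen processing sum 147 to 160 against 135 to 143. The microglia and macrophage, T cell, neuron, astrocyte, interferon pathway and proteasome partner sums did overlap. Of the 3 red blood cell, 9 oligodendrocyte and 8 antigen processing genes, 1, 2 and 2 were called higher, beside 4.62% of all features. The part of these lists in the values of the members was not tested. Psmd8, a lid subunit, was at 12.84, 12.53, 12.36 and 12.53 at T1 and at 13.24, 13.92, 13.16 and 13.14 in T1_NPC, without overlap. It was 1.74-fold higher (difference 0.80, SE 0.14, limma adjusted p = 0.000914), and 0.62 higher without T1_NPC replicate 2. In T2_NPC it lay at 12.84 to 13.06, above the T2 animals, but the difference of 0.41 missed the threshold (limma adjusted p = 0.0717).

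Psmd2, the largest scaffold of the 19S base beside Psmd1, was 0.51 higher in T1_NPC (limma adjusted p = 0.0187) and 0.51 higher in T2_NPC (0.0245). The T1_NPC animals, at 15.56 to 15.74, exceeded all 20 time-course animals, and the T2_NPC animals, at 15.30 to 15.49, exceeded all T2 animals. Both probes of Psmd2 were higher, by 0.65 and 0.38 in T1_NPC and by 0.81 and 0.20 in T2_NPC. The T1_NPC call was lost without T1 replicate 1 or T1_NPC replicate 2, and the T2_NPC call without T2 replicate 1 or 3 or T2_NPC replicate 2 or 4. Psmd5, a chaperone of the ATPase ring, was 0.57 higher in T1_NPC (limma adjusted p = 0.000825), and Psmd6 was 0.50 lower (0.0146), each without overlap with T1.

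Psmg4, a chaperone of the α ring, was at 12.86, 12.80, 12.71 and 12.61 at T2 and at 12.10, 12.07, 12.17 and 12.01 in T2_NPC, below all 20 time-course animals. It was 1.58-fold lower (difference -0.66, SE 0.10, limma adjusted p = 0.000162). Psma6 was at 14.27 to 14.50 in T2_NPC, again below all 20, and was 0.49 lower (limma adjusted p = 0.00167), although its 2 probes differed by -0.27 and -0.70. Psma2 was 0.60 lower in both transplanted groups, with overlap, and its call was lost on leaving out any of 5 arrays for T1_NPC (T1 replicates 1, 2 and 4, T1_NPC replicates 2 and 4) and any of 6 for T2_NPC (T2 replicates 2, 3 and 4, T2_NPC replicates 1, 2 and 4).

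**Figure D5:**
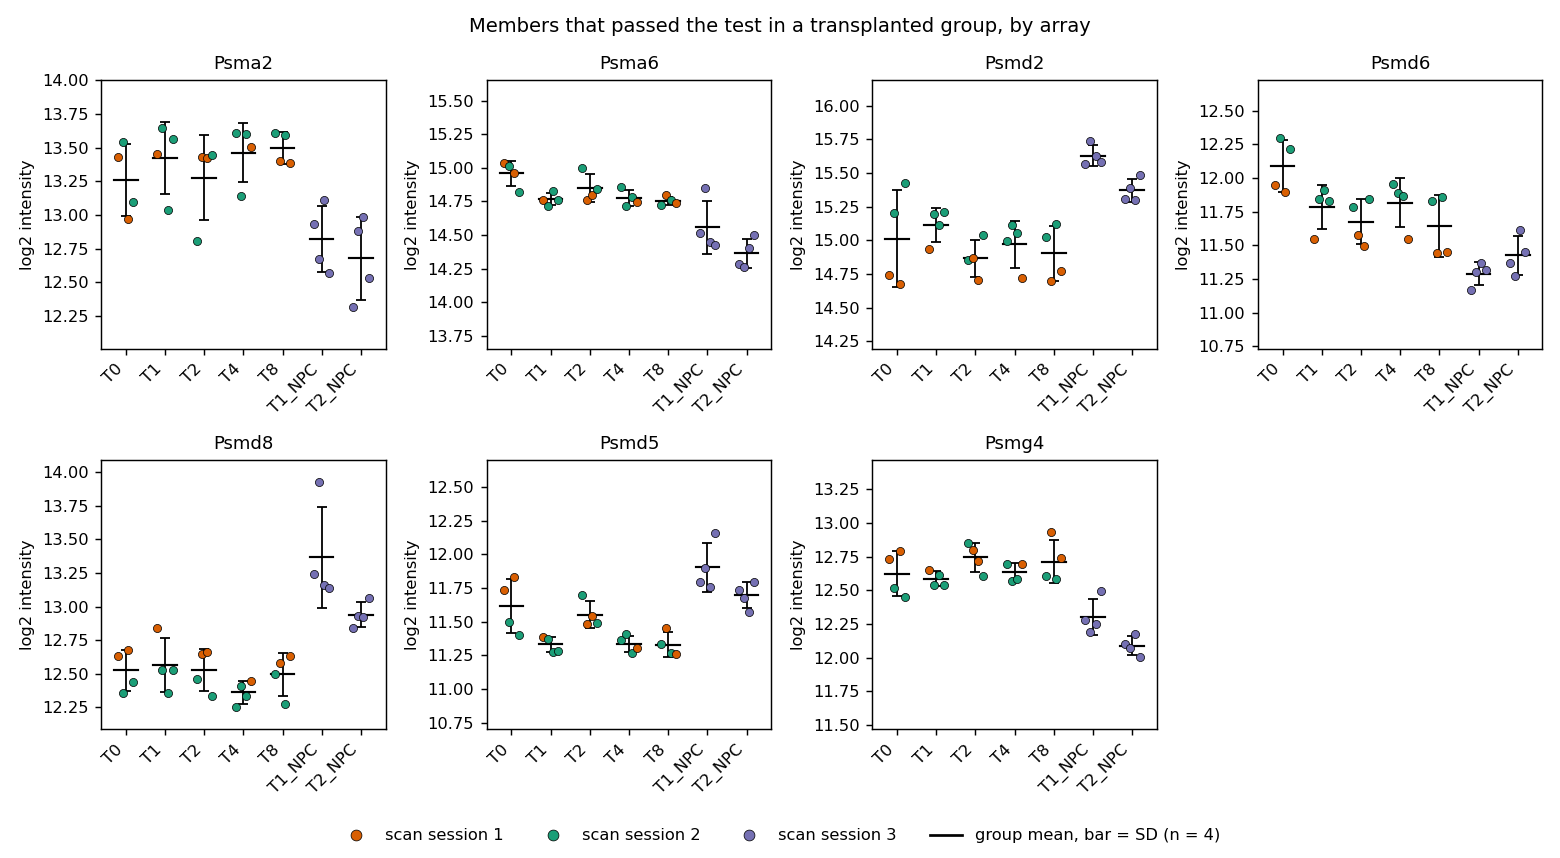
Log2 intensity of the 7 members called in a transplanted group on each of the 28 arrays, in panels of equal height on the log2 axis; points are animals coloured by scan session, lines are group means and bars SD (n = 4). Both transplanted groups lie in session 3, Psmd8 is above all 20 time-course animals in each transplanted animal, and Psmg4 and Psma6 are below them in each T2_NPC animal.

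The count depended on the fit. With only the T1 and T1_NPC arrays in the fit, no member was called, and on the undisputed arrays, where T2_NPC stands against 2 T2 animals of another session, 14 were called against 20.9% of all features. For T1_NPC 3 were called without T1 replicate 1 and 8 without T1_NPC replicate 1 or 4, and for T2_NPC 2 were called without T2 replicate 3 or T2_NPC replicate 2 and 7 without T1_NPC replicate 2, which enters through the shared estimate of the spread. The effect of early and late transplantation was also compared directly: limma called no member for the difference of the 2 effects, beside 0.299% of all features, and 5 members had an unadjusted p below 0.05. That a gene was called in 1 transplanted group and not in the other therefore does not show that the groups differ.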

How the data were processed

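The deposited value table holds log2 intensities of 45018 spots on 28 arrays, which the authors quantile normalised after Agilent background correction (per their methods). It was joined to the deposited scanner outputs (Agilent Feature Extraction 10.7.1.1) by spot number. These hold the unlogged intensity of each spot, and were used for gene names, background flags, slides, sessions and alternatives. The 1639 control spots were left out, spots were averaged per probe and probes per gene name. One limma 3.58.1 model (R 4.3.3) was fitted with a mean per group over all arrays, without a block, with Benjamini-Hochberg adjustment over 35469 features, and intervals are 95% intervals from that fit. No spot was saturated, 74.5 to 82.7% of spots per array were well above background, and 4 arrays per group limit the precision. In data simulated for T1 against T0 over 35469 features, 44 of 50 features raised by 2 log2 units were recovered. So were 29 of 50 raised by 1, 21 of 50 lowered by 1 and 4 of 50 raised by 0.5, with 5 false calls. Only these features were changed in the simulation, while limma called 44.1% of all features at T1. The adjusted threshold was therefore stricter there than in the data, and these shares do not tell which changes the data would miss. Members matched RefSeq by accession in 43 of 46 cases.

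The members and gene lists were chosen with earlier results of these data known. Named with values were all catalytic and activator members, the 3 largest called rises and falls per comparison, members of roles with under 3 genes, and Irf1, Tap1, Tap2, B2m, Pomp, Nfe2l1 and Nfe2l2, while another regulator is not reported here. Other members named were chosen after their values were seen. Slides and sessions come from the rank match of outputs to columns. Normexp on mean signals was replaced by median signals, since not every output holds means. Animals are separate by the labels, and whether RNA was pooled is not given in the sources used here.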

Additional observations from a re-analysis of the deposited data

Results flagged for a closer look

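Among 154 groups of 4 animals tested, 10 held an animal whose gap to the others was large for the range of its group, where chance gives about 1 in 20. Psmb8 and Psmb9 were low in T1 replicate 3, at 11.66 and 12.41, where the other 3 animals were at 12.31 to 12.44 and 13.02 to 13.10, and Psmc3ip was low in the same animal at 10.19. T1_NPC replicate 2 was high for Psmd8 at 13.92, against 13.14 to 13.24 in the others, and low for Psmc3ip at 9.56. T2 replicate 1 was low for Psma2 at 12.81 and high for Psmb10 at 15.26. Psmb6 was high in T1 replicate 1 at 13.94, Psmc5 in T8 replicate 4 at 16.27, and Psme2 was low in T2_NPC replicate 3 at 13.66.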

How the results depend on the processing

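With the scanner outputs taken as deposited, 0 members were called in each of the 4 comparisons with T0 and in both transplantation comparisons. There the changes from T0 at T1, T2, T4 and T8 were 1.14, 1.03, 1.94 and 1.66 for Psmb8 minus Psmb5, 1.11, 1.07, 1.91 and 1.83 for Psmb9 minus Psmb6, and 0.60, 0.59, 0.89 and 0.58 for Psmb10 minus Psmb7, none past the adjusted exact permutation threshold. Differences that turned were Psmd6 at T2 (0.031) and, in T1_NPC, Psmd2 (-0.27), Psmd5 (-0.067), Psmd6 (0.16) and Psmd8 (-0.29). On the undisputed arrays Psmb8 minus Psmb5 changed by 2.31, 2.25 and 2.30 at T1, T2 and T8, Psmb9 minus Psmb6 by 2.17 and 2.46 at T1 and T2 and Psmb10 minus Psmb7 by 0.70 at T1, and 14 members were called for T2_NPC. For T1_NPC, 9 members were called with normexp on median signals (chosen after seeing the data), 9 with a trended robust fit and 0 with only the compared groups. Normexp also took Psmb9 minus Psmb6 past the threshold in T2_NPC (0.48). With slide or, alternatively, session as a block 1 member was called for T2 against T1. The session block gave 29, 24, 28 and 29 called against T0. Within session 1, 13 were called at T1 and 13 at T4, where the spread of the single injured animal was taken from the remaining groups. With a change of at least 2-fold required, 4, 6, 5 and 6 were called against T0 and 0 and 0 after transplantation. With the brightest probe per gene, Psmd2 turned to -0.23 at T1. Leaving out 1 array gave 19 to 24, 17 to 23, 20 to 24 and 20 to 26 called at T1, T2, T4 and T8, 3 to 8 for T1_NPC and 2 to 7 for T2_NPC. The cause of these shifts was not tested. Normexp on mean signals was not run. With the replicate number as a block, 5 members were called for T1_NPC and 3 for T2_NPC. The deviations of same-numbered arrays had a mean correlation of -0.0033 over 84 pairs, which gives no sign that the numbers pair the samples. Arrays of the same scan session had a mean correlation of 0.144 over 98 pairs, and arrays of different sessions -0.0589 over 238.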
